A study of Mus musculus with 12 samples.

Results

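Of the 39032 genes in the deposited table, 42 carry a symbol made of Col, a type number, the letter a and a chain number, and these collagen genes were compared across the 4 treatments. They were sorted by type into fibrillar collagens of bone (types 1, 3 and 5, 6 genes), cartilage collagens (types 2, 9, 10 and 11, 7 genes), basement membrane collagens (types 4 and 18, 5 genes), FACIT collagens (6 genes), types 6 and 8 (8 genes) and other types (10 genes). FACIT stands for fibril-associated collagens with interrupted triple helices. Of the 42 genes, 39 were above 0 in at least 1 library and 3 (Col9a1, Col19a1 and Col25a1) were at 0 in every library and are not detected here. The 23 that reached 1 FPKM in at least 3 libraries were tested. FPKM is the number of sequenced fragments per kilobase of transcript scaled by the number of mapped fragments, so that levels of different genes can be set side by side. Collagen genes outside these 42 symbols were not analysed here.

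The RNA came from MC3T3-E1 subclone 14, a clonal line of wild-type mouse pre-osteoblasts, so each result describes 1 clone. All 4 arms grew for 5 days in osteogenic medium with β-glycerophosphate and an ascorbic acid salt, a vitamin that the hydroxylases of newly made collagen need. Control cells received vehicle, RSPO2 cells recombinant R-spondin 2 at 200 ng/ml, BMP2 cells recombinant bone morphogenetic protein 2 at 100 ng/ml, and BMP2+RSPO2 cells both proteins, with 3 independent biological replicates per arm and 12 libraries in all. The labels state as aim to find the transcripts that each protein and their combination regulate in osteoblast differentiation.

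Collagens are matrix proteins built from 3 chains wound into a triple helix. Type I, made of the chains of Col1a1 and Col1a2, is the main fibril of bone and is laid down by osteoblasts. Types III and V share fibrils with type I, types II, IX, X and XI are best known from cartilage, type IV forms the sheet of basement membranes, and type VI builds beaded filaments around cells. Bone morphogenetic proteins signal through SMAD factors, and R-spondins raise the response of cells to Wnt proteins.

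The identity of the cells was checked on marker lists. Of 9 osteoblast markers, 8 were in the table and all 8 were tested. Their summed level was 3992 to 6988 FPKM in Control, 3382 to 4675 in RSPO2, 9752 to 15532 in BMP2 and 7010 to 21653 in BMP2+RSPO2. Summed markers of adipocytes reached at most 0.14 FPKM, and those of skeletal muscle, macrophages, endothelium and epithelium at most 5.64 FPKM. How deeply each library was sequenced cannot be read from FPKM values. BMP2+RSPO2 replicate 1 stood apart: its FPKM values summed to 635139 against 322074 to 380507 in the other 11 libraries, and short RNAs made by RNA polymerase III took 19.1% of that sum against 0.179% to 2.30%. The first replicate of each arm also differed from the other two. Its median over 16 cell cycle genes was 26.8 to 48.1 FPKM against 8.31 to 19.3, and 12 of the 23 tested collagens were lower in the first replicate than in the mean of the others in all 4 arms while 2 were higher in all 4. No cell cycle gene was called in any comparison (limma, 0 of 16, and 0 of 16 at an unadjusted p under 0.05). Their values were still lower with both proteins: the log2 change was below 0 for 16 of 16 in BMP2+RSPO2 against BMP2 (median -1.02) and against Control (median -0.69), where the medians of all genes were -0.19 and -0.26. In replicates 2 and 3 their median was 19.1 and 19.3 FPKM in BMP2 and 8.48 and 8.31 in BMP2+RSPO2. In BMP2 against Control the log2 change was above 0 for 16 of 16 cell cycle genes (median 0.35, all genes -0.06). In RSPO2 against Control it was below 0 for 16 of 16 (median -0.17, all genes 0.01). The part of these shifts in the results below was not tested. Every collagen call in BMP2 or BMP2+RSPO2 against Control, and in BMP2+RSPO2 against BMP2, was also made without BMP2+RSPO2 replicate 1 and with replicates 2 and 3 alone.

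Collagen transcripts changed in both directions under BMP2, and most of those tested changed under BMP2+RSPO2. In BMP2+RSPO2 against Control, 7 of the 23 tested collagens rose and 11 fell (limma, adjusted p under 0.05), where 3.65% of all 11548 tested genes rose and 19.4% fell (23% called in all). One of the 7, Col10a1, entered the test only through libraries with BMP2 and so had to differ. The other 22 collagens split into 6 higher and 11 lower. Under BMP2 alone, against Control, 2 rose and 3 fell, compared with 0.511% and 1% of all genes (1.52% called in all). Against the RSPO2 arm, BMP2+RSPO2 showed 8 collagens higher and 12 lower (4.32% and 21.8% of all genes, 26.1% in all), and against the BMP2 arm 1 higher and 5 lower (0.641% and 3.74%, 4.38% in all), with Col10a1 again among the 8 higher than in RSPO2. In RSPO2 against Control limma called 0 of 23 collagens, with 3 at an unadjusted p under 0.05, where 0.0779% of all genes were called and 3.62% had an unadjusted p under 0.05. With the replicate number as a block, 2 collagens were called in RSPO2 against Control (of 26 genes in all) and 13 in BMP2+RSPO2 against BMP2 (of 1710). In these comparisons and in BMP2+RSPO2 against Control, libraries of the same number varied together in all 3 pairs. Replicate 2 of an arm and replicate 3 of the other also varied together there (correlations 0.153 to 0.252). The check therefore cannot tell a pairing of these numbers from the difference of the first replicates. The comparisons share arms, so their counts are not independent of each other. The 3 libraries of each arm did not overlap for 4 of 23 collagens in RSPO2 against Control (9.33% of all genes), 17 in BMP2 against Control (20.8%), 21 in BMP2+RSPO2 against Control (44%), 9 in BMP2+RSPO2 against BMP2 (33.6%) and 21 in BMP2+RSPO2 against RSPO2 (42.3%).

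The median log2 change of the tested collagens was -1.03 in BMP2+RSPO2 against Control, where the median of all tested genes was -0.26, and -0.39 in BMP2 against Control, where it was -0.06. Scaling moved the background: with quantile normalization the median of all genes in BMP2+RSPO2 against Control was -0.02 and with median-of-ratios scaling -0.04, and that of the collagens was -0.68 and -0.77. The share of rises among all called genes went from 15.9% to 49.2% and 47.0% under these scalings, while the collagens split into 6 higher and 8 lower and into 8 higher and 9 lower. In BMP2 against Control that share went from 33.7% to 44.1% and 42.8%, with 2 collagens higher and 1 lower, and 2 higher and 2 lower. In BMP2+RSPO2 against BMP2 it went from 14.6% to 51.7% and 50%, with 2 collagens higher and 3 lower, and 1 higher and 3 lower. Without the filter on low values, the calls lost were Col1a1, Col1a2, Col2a1, Col10a1 and Col15a1 in BMP2+RSPO2 against Control (limma adjusted p = 0.349, 0.294, 0.0631, 0.0664 and 0.0623), Col24a1 in BMP2 against Control (0.0566), and Col12a1 and Col24a1 in BMP2+RSPO2 against BMP2 (0.053 and 0.0568). Lost too were Col1a1, Col1a2, Col10a1, Col15a1 and Col4a2 in BMP2+RSPO2 against RSPO2 (0.285, 0.186, 0.0576, 0.061 and 0.101) and Col3a1 for the interaction (0.0787). The cause was not tested. Each of the 50 collagen calls, over the 6 comparisons, kept its direction under every alternative that gave it a value.

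**Figure D1:**
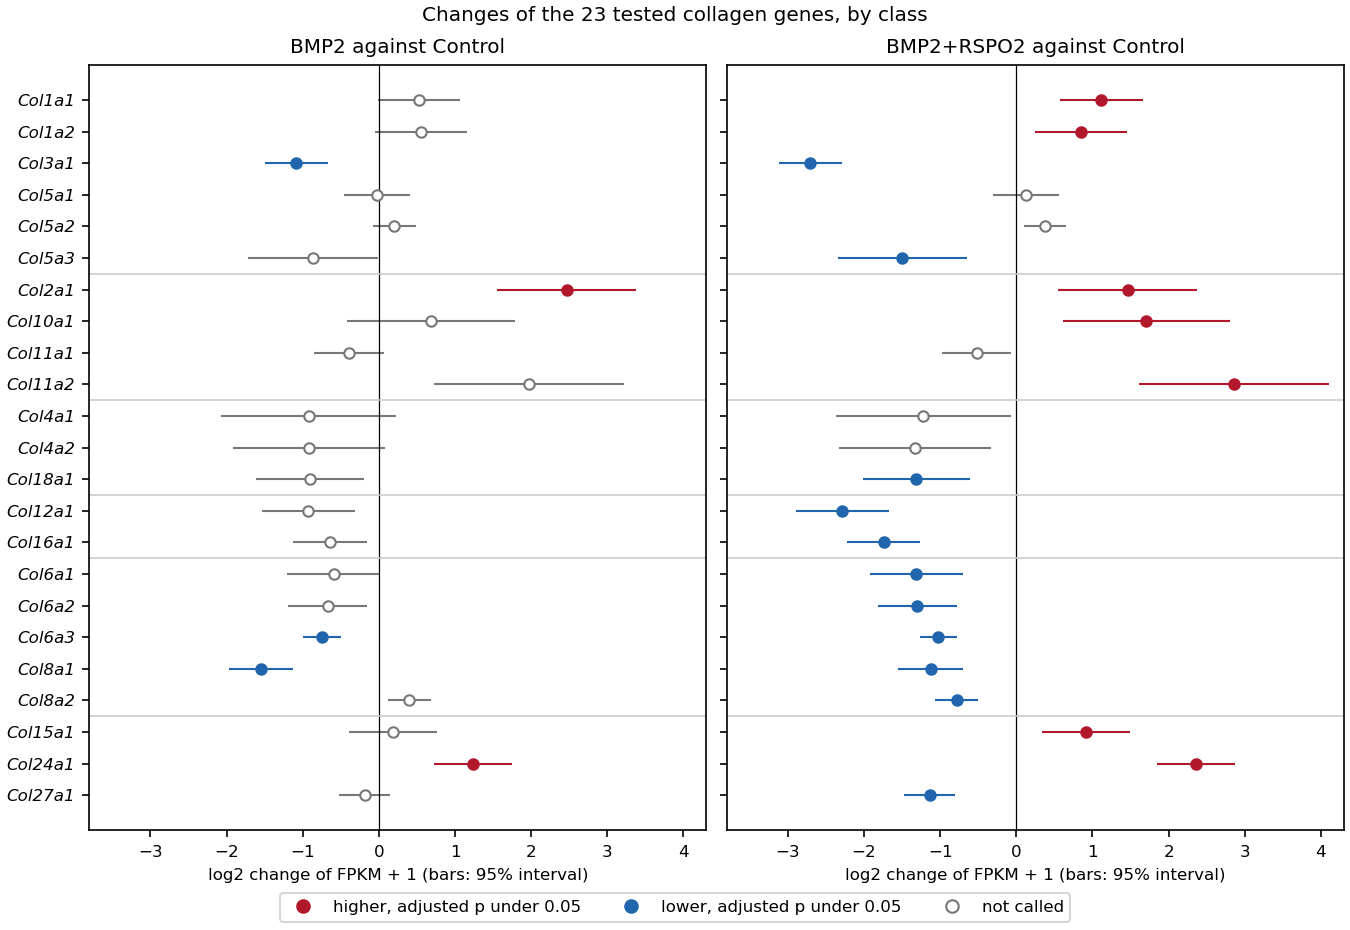
Change of each tested collagen gene in BMP2 against Control (left) and BMP2+RSPO2 against Control (right), as the log2 change of FPKM + 1 on the x axis with 95% interval bars from limma. Grey lines part the classes (fibrillar bone, cartilage, basement membrane, FACIT, types 6 and 8, other types), filled points passed an adjusted p under 0.05, and the right panel holds 7 filled points above 0 and 11 below.

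The upstream 250 bases of the collagen genes were read from RefSeq promoters of build GRCm38.p6, which matched 33 of the 42 genes and 19 of the 23 tested. Shown are the genes with the largest called rises (Col11a2 and Col24a1) and falls (Col3a1 and Col16a1) in BMP2+RSPO2 against Control among those matched, and Col1a2, the type I chain that has a window. Each runs 5′ to 3′ on the strand of its gene and ends at the base before the annotated start. Capitals mark matches, on either strand, to short words known for factors of bone and cartilage or for general promoters. The word for RUNX factors was TGTGGT, and that for SP and KLF factors was GGGCGG. The word for TCF and LEF factors was CTTTGA, and that for SMAD factors downstream of BMP was GGCGCC, which can overlap the SP word. The word of the box that TATA-binding protein recognises was TATAAA, and that for SOX factors was ACAATG.
Col3a1, chr1:45311288-45311537, plus strand: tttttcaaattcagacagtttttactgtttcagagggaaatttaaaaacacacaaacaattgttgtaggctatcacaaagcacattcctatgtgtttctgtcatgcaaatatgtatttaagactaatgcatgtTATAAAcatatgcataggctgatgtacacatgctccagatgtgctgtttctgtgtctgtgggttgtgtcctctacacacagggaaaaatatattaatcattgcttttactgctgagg
Col16a1, chr4:130047590-130047839, plus strand: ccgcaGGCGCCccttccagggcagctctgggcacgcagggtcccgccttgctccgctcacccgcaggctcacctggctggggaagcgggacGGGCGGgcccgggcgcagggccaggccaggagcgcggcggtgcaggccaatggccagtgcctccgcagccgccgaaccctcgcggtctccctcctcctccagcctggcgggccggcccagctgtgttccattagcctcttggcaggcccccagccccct
Col1a2, chr6:4505368-4505617, plus strand: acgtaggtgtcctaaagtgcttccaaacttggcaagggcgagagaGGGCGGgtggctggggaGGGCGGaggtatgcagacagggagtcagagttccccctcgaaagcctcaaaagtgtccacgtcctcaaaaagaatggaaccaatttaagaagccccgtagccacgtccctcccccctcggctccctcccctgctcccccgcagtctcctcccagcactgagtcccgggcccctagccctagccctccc
Col11a2, chr17:34038888-34039137, plus strand: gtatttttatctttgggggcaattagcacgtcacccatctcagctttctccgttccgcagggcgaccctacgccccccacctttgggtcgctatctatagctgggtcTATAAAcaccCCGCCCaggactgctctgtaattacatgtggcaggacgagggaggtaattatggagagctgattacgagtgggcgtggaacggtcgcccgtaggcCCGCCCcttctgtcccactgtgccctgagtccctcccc
Col24a1, chr3:145292222-145292471, plus strand: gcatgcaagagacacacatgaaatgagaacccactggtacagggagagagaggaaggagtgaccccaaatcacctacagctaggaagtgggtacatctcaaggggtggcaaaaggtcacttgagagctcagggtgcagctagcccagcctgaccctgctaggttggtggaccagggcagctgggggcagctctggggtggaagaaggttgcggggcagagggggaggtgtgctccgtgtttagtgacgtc

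The windows differ in base composition and in the words they hold. Col3a1 is the poorest in G and C of the 19 windows, at 35.2% with no CpG and 1 TATAAA from base -117 to -112, counted back from the start. Col16a1 holds 75.6% G and C, 21 CpG, 1 GGGCGG (-159 to -154) and 1 GGCGCC (-245 to -240). Col1a2 holds 2 GGGCGG words, at -205 to -200 and -188 to -183. Col11a2 holds GGGCGG on the other strand at -133 to -128 and -38 to -33 and a TATAAA at -143 to -138, and none of the 6 words is in the Col24a1 window. Over all 19 windows, GGGCGG was in 12 (63.2%) against 32.7% of 32851 promoters in the table, TATAAA in 3 (15.8%) against 12.4%, and TGTGGT in 1 (5.26%) against 14.1%. CTTTGA and GGCGCC were each in 3 windows (15.8%), against 13.8% and 9.59% of all promoters, and ACAATG in 0 against 10.7%. By direction in BMP2+RSPO2 against Control, GGGCGG was in 2 of the 5 windows of genes that rose, in 7 of the 10 that fell and in 3 of the 4 not called. A match is a word in the sequence, and no binding was measured.

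Both chains of type I collagen were higher with both proteins. Col1a1 was at 4015, 6454 and 6274 FPKM in Control, 3935, 5076 and 6412 in RSPO2, 6628, 8994 and 8123 in BMP2, and 10637, 12137 and 12887 in BMP2+RSPO2. All 3 BMP2+RSPO2 libraries lay above every other library, and Col1a1 ranked between place 1 and place 8 of all genes in each library. It rose 2.17-fold in BMP2+RSPO2 against Control (log2 change of FPKM + 1 of 1.12, SE 0.243, limma adjusted p = 0.00961). In BMP2 against Control the log2 change was 0.52 (95% interval -0.01 to 1.06, adjusted p = 0.524) although the BMP2 libraries all lay above Control. Col1a2 was at 2418, 3211 and 3283 FPKM in Control, 2281, 2596 and 2913 in RSPO2, 3593, 4809 and 4619 in BMP2, and 3317, 6630 and 6742 in BMP2+RSPO2. The low value of the last arm is replicate 1, the library that stood apart. Col1a2 rose by a log2 change of 0.85 in BMP2+RSPO2 against Control (SE 0.273, adjusted p = 0.0472). The change was 1.18 without BMP2+RSPO2 replicate 1 (adjusted p = 0.00159), and the call was lost without any 1 of the other 11 libraries (adjusted p up to 0.157). With quantile normalization, which gives genes of equal rank equal values, the log2 change was 0.41 for Col1a1 and 0.52 for Col1a2 and neither was called (adjusted p = 0.612 and 0.326). In bulk RNA, fewer cells that express a gene and less RNA per cell cannot be told apart, here and for every gene below.

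Type III collagen, which mixes into type I fibrils and is plentiful in soft connective tissue, moved the other way. Col3a1 was at 739.9, 759 and 775 FPKM in Control and 743, 732 and 781 in RSPO2. It was at 255, 423 and 424 in BMP2, and at 136, 106 and 108 in BMP2+RSPO2. The libraries without BMP2, the BMP2 libraries and the BMP2+RSPO2 libraries formed 3 ranges that did not overlap. Col3a1 fell in BMP2 against Control (log2 change -1.08, SE 0.188, limma adjusted p = 0.018), in BMP2+RSPO2 against Control (-2.70, SE 0.188, 2.85e-05) and in BMP2+RSPO2 against BMP2 (-1.62, SE 0.188, 0.00238). RSPO2 alone gave -0.01 (95% interval -0.43 to 0.40). The difference between the effect of RSPO2 with BMP2 and its effect without was -1.61 (SE 0.266, adjusted p = 0.0384), the 1 collagen called for this interaction, where 0.294% of all genes were called (0.00866% higher and 0.286% lower, a share of 2.94% higher that became 25% and 20% under the 2 scalings). That call was lost in 10 of the 12 fits that left out 1 library (all but those without BMP2 replicate 1 or BMP2+RSPO2 replicate 1, adjusted p up to 0.146), and the fall in BMP2 against Control was lost without any 1 Control library (up to 0.0738). With quantile normalization and median-of-ratios scaling the interaction had an adjusted p of 0.103 and 0.135, and the BMP2 fall 0.0592 and 0.0529.

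Type V chains, which start the assembly of type I fibrils and limit their width, were split. Col5a1 lay between 222 and 335 FPKM over all 12 libraries, with a log2 change of 0.13 in BMP2+RSPO2 against Control (95% interval -0.30 to 0.56). Col5a2 was at 350.3, 379.97 and 391 FPKM in Control, 309, 352 and 359.6 in RSPO2, 448, 424 and 419 in BMP2, and 409, 534.5 and 520.0 in BMP2+RSPO2. It rose against the RSPO2 arm (0.51, SE 0.127, limma adjusted p = 0.015, lost without RSPO2 replicate 1 at 0.0591) and was not called against Control (0.37, SE 0.127, 0.0558, and 0.0312 with the replicate block). Col5a3, the least abundant type V chain here, was at 14.6, 22.2 and 20.2 FPKM in Control, 19.4, 30.4 and 32.9 in RSPO2, 6.07, 13.3 and 11.6 in BMP2, and 2.81, 8.88 and 8.03 in BMP2+RSPO2. Every BMP2+RSPO2 library lay below every Control library. Col5a3 fell to a 0.354-fold level in that comparison (95% interval of the log2 change -2.35 to -0.65, adjusted p = 0.019), a call lost without Control replicate 2 or 3 (up to 0.061) and under both scalings (0.0651 and 0.062). Of the 6 fibrillar genes of bone, 2 rose and 2 fell in BMP2+RSPO2 against Control, and 1 fell in BMP2 against Control. Of all genes, 3.65% rose and 19.4% fell in the first comparison and 1% fell in the second.

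**Figure D2:**
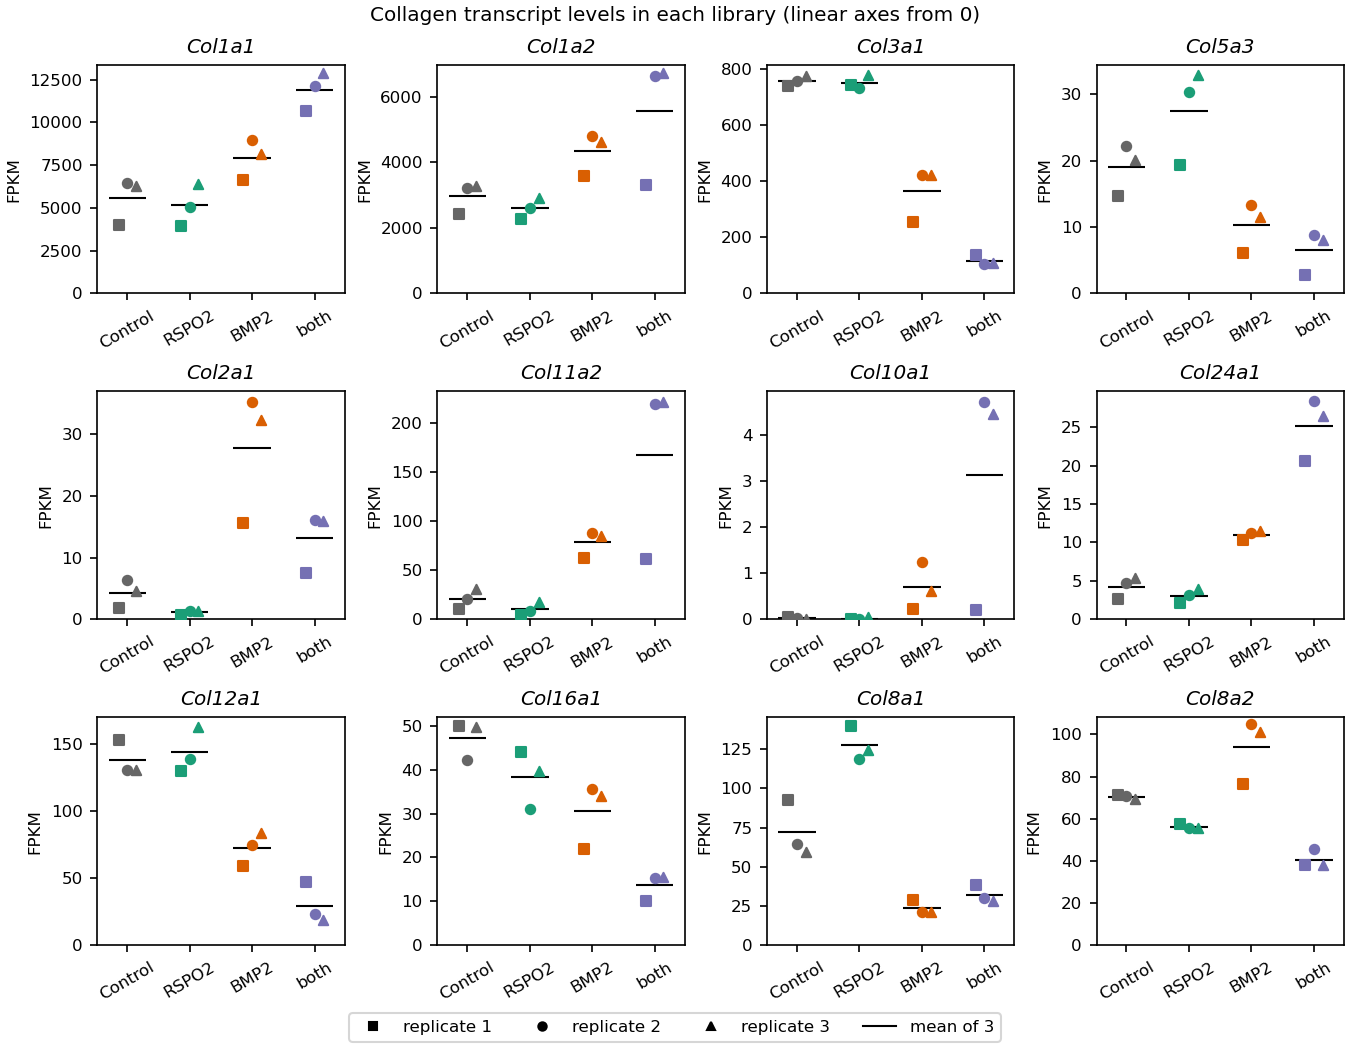
FPKM of 12 collagen genes in each of the 12 libraries on linear axes that start at 0, by arm on the x axis ("both" is BMP2+RSPO2), with symbols for the replicate and a bar at the mean of 3. Col1a1 is highest in the 3 BMP2+RSPO2 libraries, Col3a1 drops from 732 FPKM or more without BMP2 to 136 or less with both proteins, and replicate 1 of BMP2+RSPO2 sits low for Col1a2, Col11a2 and Col10a1.

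The cartilage collagens that were tested lay higher with BMP2 except Col11a1. Col2a1, the chain of type II collagen, was at 1.86, 6.40 and 4.63 FPKM in Control, 0.69, 1.43 and 1.43 in RSPO2, 15.6, 35.3 and 32.4 in BMP2, and 7.59, 16.1 and 15.9 in BMP2+RSPO2. It rose 5.53-fold in BMP2 against Control (log2 change 2.47, SE 0.413, limma adjusted p = 0.0161) and 2.75-fold in BMP2+RSPO2 against Control (1.46, SE 0.413, 0.0282). Both calls depended on single libraries: the first was lost without Control replicate 1 or BMP2 replicate 2 or 3 (adjusted p up to 0.0845), the second without Control replicate 1 or 3 or BMP2+RSPO2 replicate 2 or 3 (up to 0.101). BMP2+RSPO2 against BMP2 gave -1.01 (95% interval -1.92 to -0.09, limma adjusted p = 0.161, and 0.00914 with the replicate block). RSPO2 against Control gave -1.19 (-2.11 to -0.28, limma adjusted p = 0.958, and 0.0312 with the replicate block), with all 3 RSPO2 libraries below Control.

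Col11a2, a chain of type XI collagen that seeds cartilage fibrils, had the largest rise of the collagens in BMP2+RSPO2 against Control. Its levels were 10.6, 20.8 and 30.6 FPKM in Control, 4.79, 8.64 and 17.97 in RSPO2, 62.1, 88.1 and 85.03 in BMP2, and 61.6, 219 and 221 in BMP2+RSPO2. Every library with BMP2 lay above every library without it. The rise in BMP2+RSPO2 against Control was 7.26-fold (log2 change 2.86, SE 0.562, limma adjusted p = 0.00616) and 3.47 on the log2 scale without BMP2+RSPO2 replicate 1. In BMP2 against Control it was 1.97 (95% interval 0.73 to 3.22, adjusted p = 0.165). Col11a1, its partner chain, lay between 24.2 and 52.7 FPKM over all libraries and was not called in any comparison (log2 change -0.52 in BMP2+RSPO2 against Control, 95% interval -0.97 to -0.06, limma adjusted p = 0.0909, and 0.0118 with the replicate block). The ratio of Col11a2 to Col11a1 within a library was accordingly 0.525 ± 0.298 (SD, n = 3) in Control, 0.289 ± 0.168 in RSPO2, 2.56 ± 0.83 in BMP2 and 6.37 ± 4.12 in BMP2+RSPO2.

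Col10a1, the collagen of hypertrophic cartilage cells, was low everywhere. It was at 0.05, 0.02 and 0 FPKM in Control, 0, 0 and 0.04 in RSPO2, 0.23, 1.25 and 0.62 in BMP2, and 0.20, 4.71 and 4.45 in BMP2+RSPO2. It was tested because 3 libraries with BMP2 reached 1 FPKM, so it had to differ to enter the test. The log2 change of FPKM + 1 in BMP2+RSPO2 against Control was 1.71 (SE 0.497, limma adjusted p = 0.0319), lost without any 1 Control library (up to 0.0789), and it was not tested without BMP2 replicate 2 or BMP2+RSPO2 replicate 2 or 3. Col9a2 and Col9a3 of type IX reached at most 0.32 FPKM. The non-collagen cartilage markers were counted beside these: of 12 listed, 10 were in the table, 3 (Acan, Epyc and Matn1) were at 0 in all libraries, and of the 4 tested limma called 0 in BMP2 against Control and 0 in BMP2+RSPO2 against Control (1 and 0 at an unadjusted p under 0.05). Their summed level was 11.5 to 14.3 FPKM in Control, 6.43 to 8.27 in RSPO2, 16.7 to 19.9 in BMP2 and 9.46 to 16.4 in BMP2+RSPO2. In BMP2+RSPO2 against BMP2, 1 of the 4 fell, Matn3 (log2 change -0.80, limma adjusted p = 0.0378), where 3.74% of all genes fell. Matn3 reached 1 FPKM only in the BMP2 libraries, so it entered the test through the arm where it was high. Against the RSPO2 arm 1 rose, Sox9 (0.71, limma adjusted p = 0.0154), where 4.32% of all genes rose. Both calls were lost in some fits that left out 1 library (adjusted p up to 0.079 and 0.0613).

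The FACIT collagens that were tested, which sit on the surface of fibrils, both fell with both proteins. They were called lower against Control, where 19.4% of all genes fell, and against BMP2, where 3.74% fell. Col12a1, of type XII, was at 153, 131 and 131 FPKM in Control, 129.9, 139 and 163 in RSPO2, 59.2, 74.9 and 83.7 in BMP2, and 46.8, 23.1 and 18.9 in BMP2+RSPO2. The 4 arms fell into 3 ranges, with Control and RSPO2 together at the top. Col12a1 fell by 2.29 on the log2 scale in BMP2+RSPO2 against Control (SE 0.275, limma adjusted p = 0.000539), to a 0.205-fold level, and was not called in BMP2 against Control (-0.93, 95% interval -1.54 to -0.32, adjusted p = 0.184). Col16a1, of type XVI, was at 50.0, 42.1 and 49.8 FPKM in Control, 44.1, 31 and 39.7 in RSPO2, 21.8, 35.6 and 34.1 in BMP2, and 10.01, 15.4 and 15.5 in BMP2+RSPO2. It fell by 1.74 in BMP2+RSPO2 against Control (SE 0.22, 0.000688), and its BMP2+RSPO2 libraries all lay below the BMP2 libraries. Against the BMP2 arm the log2 change in BMP2+RSPO2 was -1.36 for Col12a1 (SE 0.275, 0.0282) and -1.10 for Col16a1 (SE 0.22, 0.0273). These last 2 calls were lost without BMP2 replicate 2 or 3 or BMP2+RSPO2 replicate 2, that of Col12a1 also without Control replicate 3 or BMP2+RSPO2 replicate 3 (adjusted p up to 0.105 and 0.107), and under both scalings (0.0926 and 0.0684 for Col12a1, 0.0707 and 0.0663 for Col16a1).

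All 3 tested type VI chains, whose products form microfibrils next to the cell surface, fell with both proteins. Col6a1 was at 543, 730.3 and 658 FPKM in Control, 563, 651 and 686 in RSPO2, 282, 531 and 507 in BMP2, and 178, 304 and 312 in BMP2+RSPO2. Col6a2 followed it, with a ratio to Col6a1 between 0.386 and 0.465 in every library, and fell from 271 ± 37.7 FPKM (SD, n = 3) in Control to 110.7 ± 24.3 in BMP2+RSPO2. Col6a3 was at 256, 246 and 226 FPKM in Control, 284, 262 and 310.2 in RSPO2, 128, 151 and 154 in BMP2, and 119, 122 and 114 in BMP2+RSPO2. For each chain the Control and BMP2+RSPO2 libraries did not overlap, as for 44% of all genes. Of all genes, 19.4% were called lower in that comparison. The log2 changes in BMP2+RSPO2 against Control were -1.31 for Col6a1 (SE 0.274, limma adjusted p = 0.00806), -1.30 for Col6a2 (SE 0.234, 0.00402) and -1.03 for Col6a3 (SE 0.111, 0.000291), called in every fit that left out 1 library and under both scalings. In BMP2 against Control Col6a3 fell (-0.75, SE 0.111, 0.0086, but 0.0628 with quantile normalization), and Col6a1 (-0.59, 95% interval -1.20 to 0.02) and Col6a2 (-0.67, -1.19 to -0.16) were not called. Col6a4, Col6a5 and Col6a6 reached at most 0.06 FPKM.

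The 2 type VIII chains, short collagens that form open lattices, responded differently from each other. Col8a1 was at 92.8, 64.5 and 59.4 FPKM in Control, 139.6, 119 and 124 in RSPO2, 29.1, 21.2 and 21.2 in BMP2, and 38.5, 30.4 and 27.95 in BMP2+RSPO2. Col8a2 was at 71.2, 70.95 and 69.3 FPKM in Control, 57.5, 55.7 and 55.4 in RSPO2, 76.3, 105 and 101 in BMP2, and 38.2, 45.5 and 38.1 in BMP2+RSPO2. Col8a1 was thus highest with RSPO2 alone and Col8a2 with BMP2 alone. Col8a1 fell in BMP2 against Control (log2 change -1.55, SE 0.192, limma adjusted p = 0.00294) and in BMP2+RSPO2 against Control (-1.12, SE 0.192, 0.00319), and both calls were made in every fit that left out 1 library. Its change in RSPO2 against Control was 0.83 (95% interval 0.41 to 1.26, limma adjusted p = 0.307, and 0.0312 with the replicate block), with no overlap between the arms. Col8a2 fell in BMP2+RSPO2 against BMP2 (-1.18, SE 0.127, 0.00178, the smallest p of the collagens there) and against Control (-0.79, SE 0.127, 0.00251, but 0.0605 with quantile normalization). In BMP2 against Control it was not called (0.40, 0.12 to 0.68, adjusted p = 0.226). The ratio of Col8a1 to Col8a2 was 1.02 ± 0.244 (SD, n = 3) in Control, 2.27 ± 0.151 in RSPO2, 0.264 ± 0.102 in BMP2 and 0.804 ± 0.181 in BMP2+RSPO2.

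Of the 3 tested basement membrane chains, 1 fell in BMP2+RSPO2 against Control, where 19.4% of all genes fell, and the replicates of both type IV chains were far apart. Col4a1 was at 16.3, 42.2 and 33.1 FPKM in Control, 15.6, 41.4 and 39.3 in RSPO2, 6.63, 22.6 and 19.9 in BMP2, and 7.62, 14.1 and 14.5 in BMP2+RSPO2. Its first replicate was the lowest in each arm. Col4a2, whose annotated start lies 21 bases from that of Col4a1 on the opposite strand, had the same pattern, at 24.1 ± 7.84 FPKM (SD, n = 3) in Control and 8.89 ± 2.75 in BMP2+RSPO2. In BMP2+RSPO2 against Control the log2 changes were -1.22 for Col4a1 (95% interval -2.37 to -0.07, limma adjusted p = 0.111) and -1.34 for Col4a2 (-2.33 to -0.34, 0.0556), neither called. With the replicate block both were (0.000943 and 0.00144). Against the RSPO2 arm Col4a2 was called (-1.35, SE 0.451, 0.0499), a call lost in 10 of the 12 fits that left out 1 library (all but those without RSPO2 replicate 1 or BMP2 replicate 1, adjusted p up to 0.146) and under both scalings (0.154 and 0.16). Col18a1, whose product yields the fragment endostatin, was at 5.24, 11.8 and 10.01 FPKM in Control, 5.22, 10.3 and 12.1 in RSPO2, 2.90, 4.62 and 5.11 in BMP2, and 3.21, 2.72 and 2.68 in BMP2+RSPO2. It fell by 1.31 in BMP2+RSPO2 against Control (SE 0.319, 0.0157), a call lost without Control replicate 2 or 3 (up to 0.0566) and under both scalings (0.0619 and 0.0598). Col4a3 and Col4a4 reached at most 0.17 FPKM.

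Of the other types, Col24a1 and Col15a1 rose and Col27a1 fell in BMP2+RSPO2 against Control, where 3.65% of all genes rose and 19.4% fell. Col24a1, a fibrillar collagen that resembles those of invertebrates and is made in bone, was at 2.58, 4.69 and 5.37 FPKM in Control, 2.09, 3.10 and 3.99 in RSPO2, 10.3, 11.2 and 11.5 in BMP2, and 20.6, 28.4 and 26.4 in BMP2+RSPO2. The BMP2 libraries lay above all libraries without BMP2, and the BMP2+RSPO2 libraries above the BMP2 libraries. Col24a1 rose in BMP2+RSPO2 against Control (log2 change 2.36, SE 0.231, limma adjusted p = 0.000164), in BMP2 against Control (1.24, SE 0.231, 0.0249) and in BMP2+RSPO2 against BMP2 (1.11, SE 0.231, 0.03). The first call held in every fit that left out 1 library. The second was lost without Control replicate 1 or 2 or any 1 BMP2 library (up to 0.114), the third without RSPO2 replicate 2, any 1 BMP2 library or BMP2+RSPO2 replicate 2 or 3 (up to 0.104). Col15a1, of type XV, was at 9.03, 18.5 and 12.4 FPKM in Control, 8.76, 15.5 and 16.1 in RSPO2, 14.2, 15.3 and 14.5 in BMP2, and 20.5, 26.97 and 27.9 in BMP2+RSPO2. It rose in BMP2+RSPO2 against Control (0.91, SE 0.261, 0.0301, lost without Control replicate 1 or 3 or BMP2+RSPO2 replicate 2 or 3 at up to 0.109). Col27a1, a fibrillar collagen of cartilage and other tissues, was at 5.32, 4.71 and 5.35 FPKM in Control, 4.23, 4.64 and 5.36 in RSPO2, 3.28, 4.68 and 5.45 in BMP2, and 1.94, 1.72 and 1.70 in BMP2+RSPO2. It fell with both proteins against Control (-1.14, SE 0.151, 0.000887) and against BMP2 (-0.95, SE 0.151, 0.0125, lost without BMP2 replicate 2 or 3 at up to 0.0714).

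The 16 collagens above 0 that were not tested reached at most 0.87 FPKM in any library. They are Col4a3, Col4a4, Col6a4, Col6a5, Col6a6, Col7a1, Col9a2, Col9a3, Col13a1, Col14a1, Col17a1, Col20a1, Col22a1, Col23a1, Col26a1 and Col28a1, named here so that each gene is accounted for. Col22a1, of the FACIT class, was at 0.08, 0.06 and 0.18 FPKM in Control and 0.57, 0.87 and 0.80 in BMP2+RSPO2. Col13a1, a transmembrane collagen, was at 0, 0 and 0.03 in Control and 0.15, 0.58 and 0.31 in BMP2+RSPO2. Without the filter on low values both were called higher in that comparison (log2 change 0.66 and 0.40, limma adjusted p = 0.00634 and 0.0257) and Col17a1, of type XVII, lower (-0.35, 0.0129).

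Ratios between chains do not change when a library is multiplied by a factor, though quantile normalization can change them. For each protein 5 of them were tested with an exact two-sided permutation test that kept the state of the other protein fixed. Col3a1 to Col1a1 was 0.184, 0.118 and 0.124 in Control, 0.189, 0.144 and 0.122 in RSPO2, 0.0385, 0.047 and 0.0522 in BMP2, and 0.0128, 0.00869 and 0.00834 in BMP2+RSPO2. The 6 libraries with BMP2 all lay below the 6 without. The log2 difference for BMP2 was -2.77 (exact permutation p = 0.005, the smallest the 400 arrangements allow, adjusted p = 0.025 over 5 ratios). It was between -2.87 and -2.67 when any 1 library was left out. The ratio joins 2 genes whose levels in the same libraries are given above, so it is not separate support for those results. Of the other 4 ratios tested, none passed for BMP2. Col1a2 to Col1a1 was between 0.454 and 0.602 in 11 libraries and 0.312 in BMP2+RSPO2 replicate 1, with a log2 difference for BMP2 of -0.09 (exact adjusted p = 0.745). Col4a2 to Col4a1 was between 0.719 and 1.003 (difference -0.06, 0.745) and Col6a3 to Col6a1 between 0.284 and 0.670 (-0.06, 0.745). Col5a2 to Col5a1 was higher with BMP2 by 0.29 (exact p = 0.02, adjusted p = 0.05, not under the threshold). It was higher in 6 of 6 same-numbered pairs, although the numbers were not taken to pair the samples in these comparisons. For RSPO2 none of the 5 ratios passed (exact adjusted p from 0.225 to 0.7), with Col3a1 to Col1a1 at -1.06, made of 0.10 without BMP2 and -2.22 with it.

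**Figure D3:**
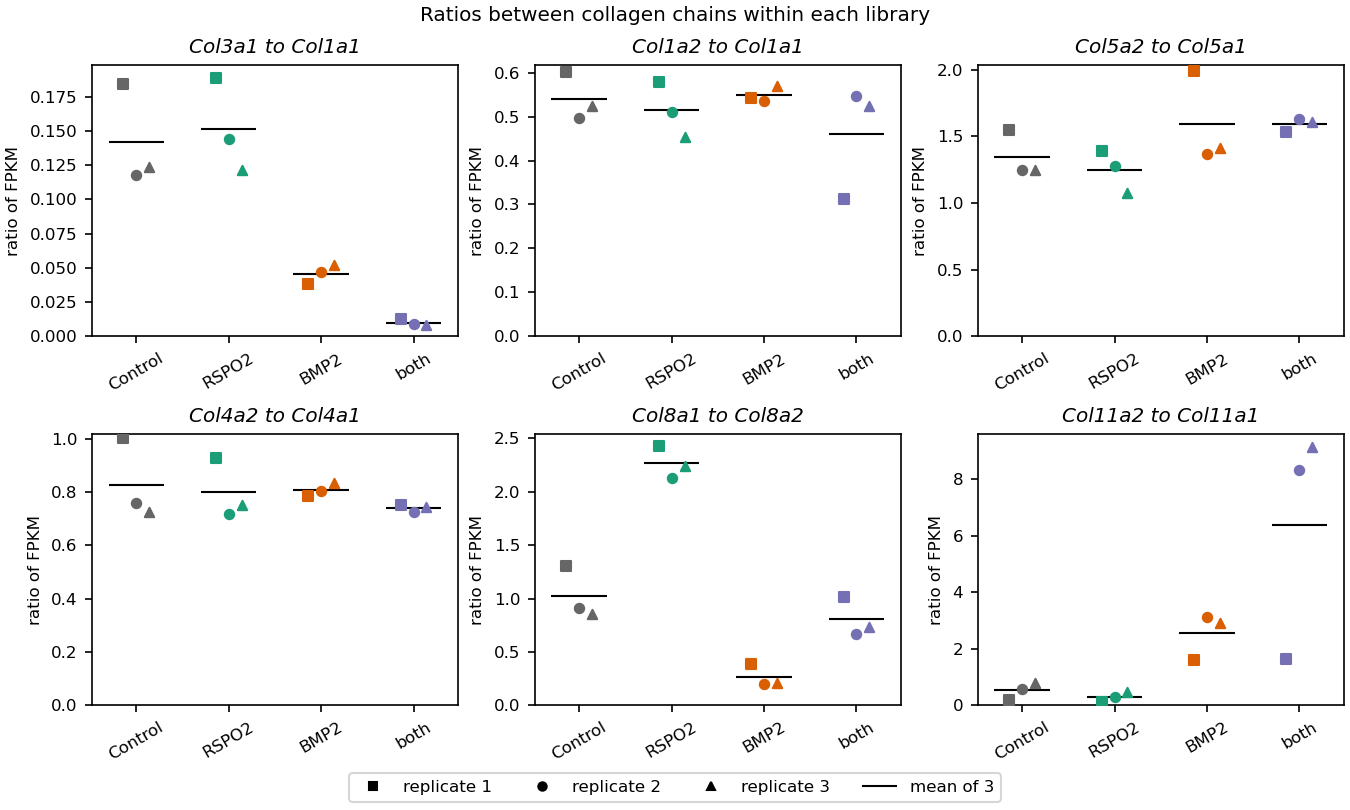
Ratio of FPKM between pairs of collagen chains in each library on linear axes that start at 0, by arm ("both" is BMP2+RSPO2), with symbols for the replicate and a bar at the mean of 3. Col3a1 to Col1a1 is at most 0.0522 in the libraries with BMP2 and at least 0.118 in those without, while Col4a2 to Col4a1 stays between 0.719 and 1.003.

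Summed by FPKM, the collagen transcripts shifted toward type I. Col1a1 and Col1a2 made up 69.3% to 75.3% of all collagen FPKM in Control, 68.5% to 73.5% in RSPO2, 83.8% to 85.0% in BMP2 and 90.3% to 90.9% in BMP2+RSPO2. The arms with BMP2 did not overlap with those without, nor with each other. The summed FPKM of the 40 remaining genes was 2847 to 3232 in Control, 2858 to 3361 in RSPO2, 1810.2 to 2526 in BMP2 and 1496 to 1990.1 in BMP2+RSPO2. The arms with BMP2 thus held less of the remaining collagens than the arms without it. Types 6 and 8 together took 11.3% ± 1.37 (SD, n = 3) in Control and 2.94% ± 0.0672 in BMP2+RSPO2, FACIT collagens 1.65% ± 0.468 and 0.243% ± 0.113, and cartilage collagens 0.592% ± 0.11 and 1.07% ± 0.327. Collagens as a whole were 2.52% to 3.55% of all FPKM in Control, 3.23% to 4.67% in BMP2, and 6.44% and 6.52% in BMP2+RSPO2 replicates 2 and 3 but 2.43% in replicate 1.

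**Figure D4:**
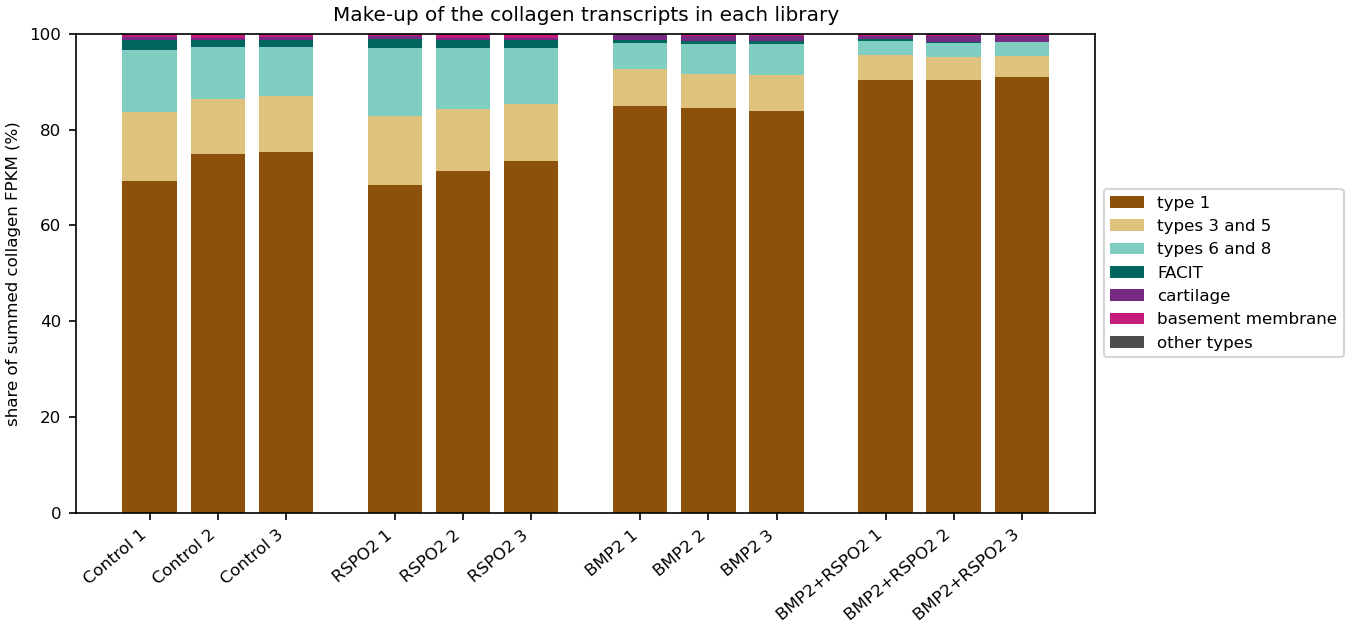
Share of the summed collagen FPKM (%) that each class takes in each of the 12 libraries, as stacked bars from 0 to 100, with type 1 drawn apart from types 3 and 5. The type 1 block grows from 69.3% to 75.3% in Control to 90.3% to 90.9% in BMP2+RSPO2, and that of types 6 and 8 shrinks to 2.87% to 3.00%.

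The effect of RSPO2 was read in both settings, without BMP2 (RSPO2 against Control) and with it (BMP2+RSPO2 against BMP2), in comparisons that share no library. With BMP2, Col24a1 rose and Col3a1, Col8a2, Col12a1, Col16a1 and Col27a1 fell. Without BMP2 none of these was called, either in the fit without a block or with the replicate block. Their log2 changes without BMP2 were -0.35 for Col24a1, -0.01 for Col3a1, -0.32 for Col8a2, 0.06 for Col12a1, -0.31 for Col16a1 and -0.10 for Col27a1. Of the 6, the difference of effects itself passed the test for Col3a1 only (limma adjusted p = 0.0384), and it was -0.86 for Col8a2 (0.0895), 1.46 for Col24a1 (0.115), -0.86 for Col27a1 (0.14), -1.42 for Col12a1 (0.176) and -0.79 for Col16a1 (0.34). With the replicate block, Col15a1, Col1a1 and Col8a1 were also called higher in BMP2+RSPO2 against BMP2 (log2 changes 0.73, 0.59 and 0.43, limma adjusted p = 0.0316, 0.0425 and 0.0281) and Col2a1, Col5a3, Col6a1 and Col6a2 lower (-1.01, -0.63, -0.72 and -0.63, adjusted p = 0.00914, 0.037, 0.0225 and 0.0186). Over all 23 collagens the median effect was -0.02 without BMP2, where all genes had 0.01, and -0.30 with it, where all genes had -0.19.

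**Figure D5:**
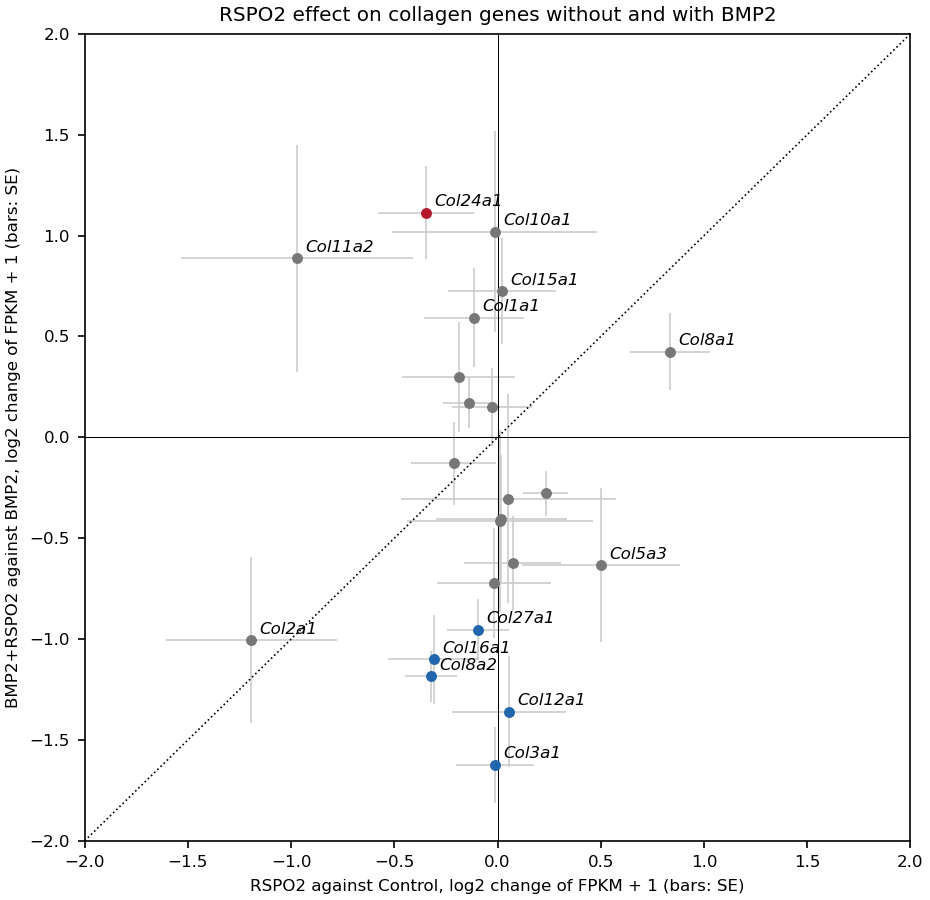
Log2 change of FPKM + 1 for RSPO2 without BMP2 (x axis, RSPO2 against Control) and with BMP2 (y axis, BMP2+RSPO2 against BMP2) of the 23 tested collagens, with SE bars from limma and a dotted line of equal effects. Blue points were called lower and the red point higher on the y axis, and no gene was called on the x axis; Col3a1 sits at -0.01 and -1.62.

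Genes that make, bind and degrade collagen were counted from lists. Of 26 tested genes for collagen folding, processing and crosslinking, 2 rose and 4 fell in BMP2+RSPO2 against Control. That is 23.1% of them against 23% of all genes, so the list was at the background in this comparison. Against the RSPO2 arm it was above the background, with 5 higher and 9 lower (53.8% called, against 26.1% of all genes). By direction, 4.32% of all genes rose there and 21.8% fell. None of the 26 was called in BMP2 against Control (limma, 0 called and 2 at an unadjusted p under 0.05). P4ha3, a subunit of a prolyl hydroxylase, went from 32.4 ± 1.74 FPKM (SD, n = 3) in Control to 11.6 ± 3.22 (log2 change -1.44, SE 0.167, adjusted p = 0.000422). Bmp1, the protease that trims the end of procollagen, rose from 33.04 ± 0.715 to 61.4 ± 14.4 (0.85, SE 0.161, 0.00537). Pcolce, which aids that protease, fell from 198 ± 12 to 135 ± 14.4 (-0.56, SE 0.118, 0.0087), a call lost under both scalings (0.19 and 0.136). Among 7 receptors 2 rose and 1 fell in BMP2+RSPO2 against Control, where 3.65% of all genes rose and 19.4% fell. The integrin chain Itga11 rose (0.72, SE 0.129, 0.00384) and the integrin chain Itga1 fell (-1.05, SE 0.139, 0.000869). Ddr2, a kinase receptor of fibrillar collagen, rose against the BMP2 arm, from 11.6 ± 1.43 FPKM to 53.03 ± 8.45 (2.10, SE 0.421, 0.0277, lost without any 1 BMP2 library or BMP2+RSPO2 replicate 2 at up to 0.105). In Control it was at 11.2, 45.5 and 11.9 FPKM, and it was called higher against that arm too (1.46, limma adjusted p = 0.0303). That call was lost without Control replicate 1 or 3 or any 1 BMP2+RSPO2 library (up to 0.111). It was also lost with replicates 2 and 3 alone (0.179) and with the 2 arms alone (0.114).

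Of 8 tested genes of collagen breakdown, 1 fell in BMP2+RSPO2 against Control and 1 in BMP2+RSPO2 against BMP2. Each is 12.5% of the list, against 23% and 4.38% of all genes called. The latter was Mmp13, the collagenase of cartilage and bone cells, at 4.29, 38.1 and 40.3 FPKM in BMP2 and 0.28, 0.13 and 0.13 in BMP2+RSPO2 (log2 change -4.12, SE 0.631, limma adjusted p = 0.0106, lost without BMP2 replicate 2 or 3 at up to 0.0514). Outside the BMP2 arm it reached 1 FPKM only in Control replicates 2 and 3 (2.43 and 2.26). It thus entered the test only through the arm where it was high, and the 12.5% in that comparison rests on it. The gene that fell against Control was Pepd, a dipeptidase for collagen fragments (-0.60, SE 0.115, 0.00541). Of 11 tested proteins that sit on fibrils or between them, 1 rose and 6 fell in BMP2+RSPO2 against Control (3.65% and 19.4% of all genes), and 1 fell in BMP2 against Control (1% of all genes). Aspn (asporin) fell from 353 ± 47.6 FPKM in Control to 68.1 ± 5.07 in BMP2 and 14.3 ± 10.5 in BMP2+RSPO2 (log2 changes -2.35 and -4.73, SE 0.355, 0.00933 and 3.51e-05), the BMP2 call lost without Control replicate 1 (0.0513). Ogn (osteoglycin) fell by 3.08 (SE 0.324, 0.000248) and Postn (periostin) by 1.17 (SE 0.104, 9.25e-05) in BMP2+RSPO2 against Control. Of the osteoblast markers, 6 of 8 rose in that comparison (3.65% of all genes), among them Alpl (1.74, SE 0.191, 0.000322), Ibsp (2.03, SE 0.26, 0.000741) and Sp7 (1.06, SE 0.28, 0.0222, lost without Control replicate 1 or BMP2+RSPO2 replicate 2 or 3 at up to 0.0821).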

How the data were processed

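RNA-seq of 12 cultures (4 arms, 3 independent biological replicates each, per the labels) was deposited by the authors as 1 table of FPKM values per gene, rounded to 2 decimals. Libraries were poly(A)-selected and stranded, per the labels' protocols. The submitters' processing notes name cutadapt 1.10, FastQC 0.10.1, HISAT2 2.0, StringTie 1.3.4 and edgeR, and the builds GRCm38 and mm10, with no role for each. Gene identifiers are those of the C57BL/6NJ strain, so no coordinates were taken from the table. Depth is unknown: no whole-read steps were found in 66 library pairs between 0.2 and 1 FPKM, and no counting interval is given. The deposited p-value, q-value and significance columns were not used, since their comparison is not stated.

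Genes at 1 FPKM or more in at least 3 libraries (11548) were tested on log2(FPKM + 1) with limma 3.58.1 (R 4.3.3, trended variance, all 4 arms in 1 fit, 8 residual and 2.5 prior degrees of freedom) in 6 comparisons. P-values were adjusted by Benjamini and Hochberg over all genes of a comparison and called under 0.05. Fold changes on this scale understate those of low genes. Chain ratios were tested by exact permutation in Python 3.11.15 with scipy 1.17.1. The scripts were tested on simulated data.

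All 3 same-numbered pairs correlated over 0.1 in their deviations from the arm means in RSPO2 against Control, BMP2+RSPO2 against Control and BMP2+RSPO2 against BMP2, so values with the number as a block stand beside those results. Replicates 2 and 3 paired across numbers correlated over 0.1 there too (0.153 to 0.252). The check thus does not show that these numbers pair the samples. The labels do not say what a number shares. In limma the block was fitted over all arms together. Its estimate therefore also used pairs of arms in which not every same-numbered pair correlated over 0.1. Reading the pairing comparison by comparison was chosen after the results of the block had been seen, and the fit without it remains the main one.

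The alternatives were a pseudocount of 0.1, no filter, quantile and median-of-ratios scaling, a replicate block, replicates 2 and 3 alone, the 2 arms compared alone, and leaving out each library. Named are collagens called in any comparison, the 2 most abundant per class, 5 markers and the chains of the ratios. Changes of genes on the other lists were taken from up to 3 called genes with the smallest p per comparison. Not every such gene or comparison is given, so one that is absent above may still have been called. Genes below the filter were named after their values were seen. The collagen genes, among them the chains of the ratios, and the lists were chosen with earlier results of these data known.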

Additional observations from a re-analysis of the deposited data

Results flagged for a closer look

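For Col3a1 the effect of RSPO2 was called different with and without BMP2 in the main fit. The log2 change was -0.01 for RSPO2 against Control and -1.62 for BMP2+RSPO2 against BMP2, and the difference between them was -1.61 (SE 0.266, limma interaction term, adjusted p = 0.0384). All 3 BMP2+RSPO2 libraries lay below all 3 BMP2 libraries, while the RSPO2 and Control libraries overlapped. Over the fits that left out 1 library the difference was between -1.85 and -1.49, with an adjusted p up to 0.146. The call was lost in most of these fits, without the filter on low values, and under both scalings.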

How the results depend on the processing

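Of 941 alternative values of the 50 collagen calls, 794 kept direction and call, 147 kept direction and lost the call, and 0 turned. A collagen result that was not called did turn: Col1a2 in BMP2+RSPO2 against BMP2 was -0.13 with quantile normalization. For the genes of other lists, 652 of 737 values kept the call of 39 results and 0 turned. The count of called collagens in BMP2 against Control (5) became 3 with quantile normalization, 16 with replicates 2 and 3 alone, 3 with the 2 arms alone and 2 to 7 when leaving out 1 library. In BMP2+RSPO2 against BMP2 (6) it became 21 with replicates 2 and 3, 0 with the 2 arms alone (limma) and 2 to 7, in BMP2+RSPO2 against RSPO2 (20) 13 with the 2 arms alone and 15 to 20, and in BMP2+RSPO2 against Control (18) 12 to 20. In RSPO2 against Control (0) it was 2 with replicates 2 and 3 and 0 in each leave-out. For the interaction (1) it was 0 without the filter and with either scaling, 16 with replicates 2 and 3, and 0 to 3. Over all genes, calls in RSPO2 against Control (9) were 0 to 192, in BMP2 against Control (175) 66 to 967, in BMP2+RSPO2 against Control (2656) 1235 to 4004, in BMP2+RSPO2 against BMP2 (506) 39 to 2515, in BMP2+RSPO2 against RSPO2 (3015) 1306 to 4290, and for the interaction (34) 0 to 1107. Fewer samples enter the 2-arm and leave-out fits, and for the other settings the cause was not tested.

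For the ratios, Col3a1 to Col1a1 with BMP2 was -2.62 with replicates 2 and 3 alone (exact adjusted p = 0.0694, where the smallest raw p is 0.0556) and -2.87 to -2.67 when leaving out 1 library. For BMP2, Col1a2 to Col1a1 was 0.13 with replicates 2 and 3 (leave-out -0.16 to 0.042), Col4a2 to Col4a1 0.072 (-0.11 to 0.011), Col6a3 to Col6a1 -0.20 to 0.020 and Col5a2 to Col5a1 0.21 to 0.34. For RSPO2, Col5a2 to Col5a1 was 0.065 with replicates 2 and 3 (leave-out -0.093 to 0.041), Col3a1 to Col1a1 -1.16 to -0.96, Col1a2 to Col1a1 -0.26 to -0.05, Col6a3 to Col6a1 0.21 to 0.45 and Col4a2 to Col4a1 -0.14 to -0.01.

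Of 18 correlations between same-numbered libraries, 16 were over 0.1 (-0.124 to 0.631), and 9 of 12 libraries correlated best with their own number. In BMP2 against Control, BMP2+RSPO2 against RSPO2 and the interaction not every pair passed, so there the numbers were not taken to pair the samples. Where every pair passed, replicates 2 and 3 paired across numbers passed as well. With a replicate block, called collagens were 2 in RSPO2 against Control, 10 in BMP2 against Control, 13 in BMP2+RSPO2 against BMP2 and 2 for the interaction, and all called genes were 26, 329, 1710 and 91. With the block the Col3a1 to Col1a1 difference was -2.77, at an exact adjusted p of 0.0781, where the smallest raw p of 6 pairs is 0.03125.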
